A study of Mus musculus with 31 samples.

Results

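Fetal XY mouse gonads that lack both Sox9 and Ctnnb1 in their somatic cells (XY DKO) were compared with XY gonads that lack Sox9 alone (XY Sox9KO). The members were the 3 arrays titled as XY double knockout and the 4 arrays titled as XY Sox9 knockout, 7 of the 31 arrays of the series. XY DKO embryos carried the Sf1-cre transgene with the alleles Ctnnb1f/f and Sox9f/f, and XY Sox9KO embryos carried Sf1-cre with Ctnnb1+/f and Sox9f/f. The XY Ctr (4 arrays) and XX Ctr (4 arrays) gonads, used to say what a testis gene and an ovary gene are, carried Sf1-cre with Ctnnb1+/f and Sox9+/f, so every group shared the Cre transgene and had at least 1 floxed allele of each gene. XX DKO and XX Sox9KO (4 arrays each) had the genotypes of their XY counterparts. All gonads were taken at embryonic day 14.5 and freed from the mesonephros, and 1 pair of gonads made 1 array. The Cre driver acts in the somatic lineage of the gonad and in other Sf1-positive tissue, and germ cells keep their floxed alleles unrecombined. The labels do not say which embryos were littermates, and the p-values measure the spread between these pairs of gonads.

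In the fetal gonad, SOX9 directs supporting cells to become Sertoli cells, which make anti-Müllerian hormone and the ligand desert hedgehog, enclose the germ cells in cords and, through hedgehog signalling to the interstitium, promote the fetal Leydig cells that synthesise androgens. The opposing ovarian programme uses RSPO1 and WNT4, which stabilise the Ctnnb1 product beta-catenin, and FOXL2 in pregranulosa cells. An XY gonad without Sox9 takes the ovarian route. The comparison addresses which testis genes are on again in that gonad when beta-catenin is removed as well, which are not, and which ovarian genes go down.

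Values are signal intensities on a linear scale, and differences are on the log2(signal + 16) scale with the limma standard error, unless a signal is named. A gene is called at a Benjamini-Hochberg adjusted p below 0.05 over the 11777 genes tested. Over all of those genes, 1303 were called higher (11.1%) and 1269 lower (10.8%) in XY DKO than in XY Sox9KO, together 21.8%, and the median difference was -0.02. Correlations of log2 values ran from 0.967 to 0.983 among XY DKO arrays, from 0.972 to 0.985 among XY Sox9KO arrays and from 0.912 to 0.952 between the groups. The median signal of an array lay between 120.6 and 168.8 over all 31 arrays.

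The targeted genes and the karyotype were read before any other gene. Sox9 signals were 34.5, 8.6 and 34.9 in XY DKO, against 7.1, 32.3, 10.8 and 41.7 in XY Sox9KO, and 857, 839.7, 1025 and 995 in XY Ctr. Both knockout groups thus lay far below the control testis and overlapped each other. The Y-linked gene Eif2s3y averaged 3629 ± 96.7 in XY DKO (SD, n = 3), 3116 ± 301 in XY Sox9KO and 3310.3 ± 237 in XY Ctr (SD, n = 4 each), and the highest Xist signal on any of these arrays was 103.5, with 7489.8 as the lowest in XX Ctr. Xist was 51.1 on 1 array labelled XX Ctnnb1KO (replicate 4), against that label. This array is in no group compared. It enters the estimate of the spread, the choice of probe sets and the filter on low signal. Without it 2573 genes were called in place of 2572. For Ctnnb1 the strongest of 3 probe sets gave 12486 ± 1239 in XY DKO and 12887 ± 658 in XY Sox9KO (difference -0.05 ± 0.07, adjusted p = 0.659), and the weakest fell by 0.448 (adjusted p = 0.00349 over probe sets). No source used here places these probes inside or outside the floxed exons, and Ctnnb1 was therefore not used to check a label. Nr5a1, the Sf1 gene that marks steroidogenic and supporting gonadal cells, was present throughout, at 1722, 1645 and 2153 in XY DKO, against 1346, 1649.8, 1470.5 and 1596 in XY Sox9KO and 2649, 2475, 2504 and 2478 in XY Ctr. The groups overlapped for Nr5a1 (difference 0.27 ± 0.11, adjusted p = 0.0769). It passed the test without XY DKO replicate 3 (0.347, adjusted p = 0.0481).

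Testis genes were defined as those called and at least 1 log2 unit higher in XY Ctr than in XX Ctr, and ovary genes as those called and at least 1 log2 unit lower. These control arrays took no part in the comparison of XY DKO with XY Sox9KO. Of 519 testis genes, 353 rose (68.0%), 8 fell and 158 did not pass the test, with a median difference of 0.825. Among 522 ovary genes, 307 fell (58.8%), 5 rose and 210 did not pass, with a median of -0.778. Over all genes 11.1% rose and 10.8% fell. XY DKO was still below XY Ctr for 324 of the 519 testis genes and above it for 255 of the 522 ovary genes, against 7.61% of all genes called lower and 9.62% called higher than XY Ctr. The XY Ctr arrays also helped to choose these genes, so the counts against XY Ctr are a description. In bulk gonads fewer cells of a type and less RNA per cell cannot be told apart, here and in every result that follows.

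**Figure D1:**
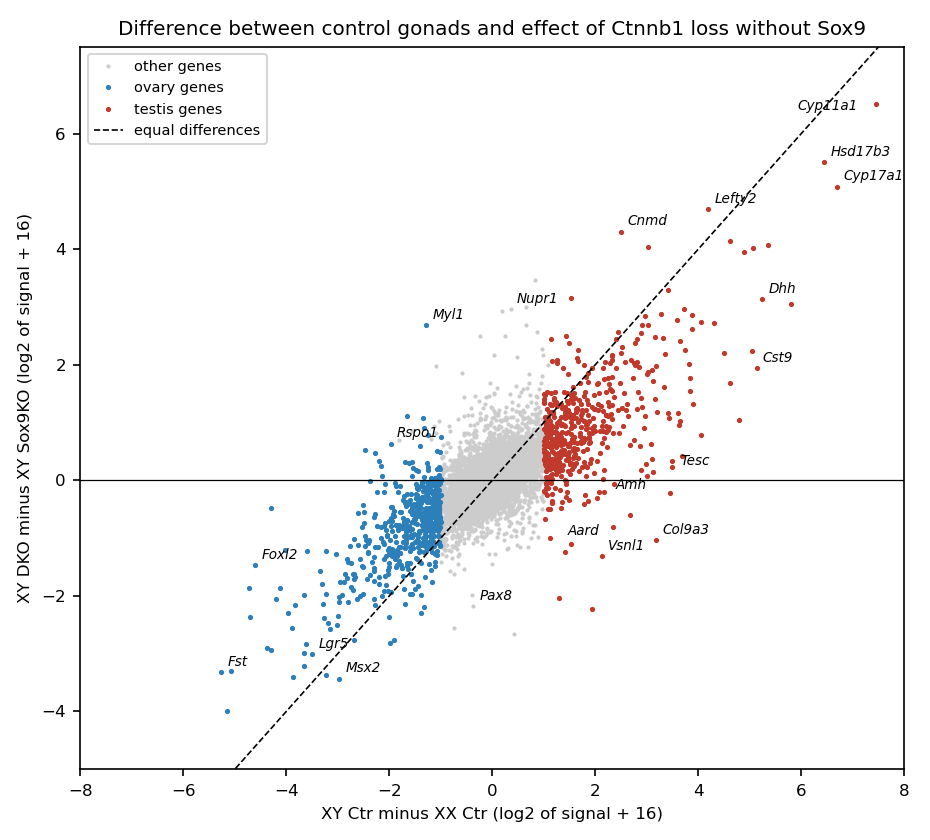
Each point is 1 of 11777 genes, with the XY Ctr minus XX Ctr difference across and the XY DKO minus XY Sox9KO difference up, both in log2 units of signal + 16. Testis genes lie mostly above 0 and ovary genes mostly below 0, with most of both between the zero line and the dashed line of equal differences.

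The extent of return was expressed as the percent of the way from the XY Sox9KO mean (0%) to the XY Ctr mean (100%) on the log2 scale, for genes with a gap of at least 1 log2 unit. The XY Ctr arrays that set the 100% end also helped to choose the genes, so these percents are a description. Over 431 testis genes the median was 54.4%, 52.6% and 57.3% on the 3 XY DKO arrays (mean 54.8% ± 2.38, SD, n = 3). The quartiles were 32.0% and 75.7%, so genes differed widely among themselves. By gene, 31 lay below 0%, 53 between 0 and 25%, 103 between 25 and 50%, 131 between 50 and 75%, 75 between 75 and 100% and 38 above 100%. Over 442 ovary genes the median loss was 53.8%, 51.2% and 63.6% on the 3 arrays (mean 56.2% ± 6.52, SD, n = 3), with quartiles at 35.1% and 74.6%. On the linear signal scale the same medians were 37.0% for testis genes and 72.2% for ovary genes, so the scale decides whether return and loss look alike.

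Of 6 measured transcription factor genes of the Sertoli lineage, Sox8 rose, Nr0b1 fell and 4 did not pass, with a list median of 0.153. Each count is 16.7% of the list, beside 11.1% of all genes called higher and 10.8% called lower. Sox8, the close relative of Sox9 that backs it up in the testis, had signals of 149, 129 and 180.0 in XY DKO, against 81.2, 87.2, 61 and 87.6 in XY Sox9KO, and 577, 600.5, 625 and 794 in XY Ctr. The XY DKO arrays lay above every XY Sox9KO array but far below the control testis. The rise was 0.82 ± 0.19 (adjusted p = 0.00201), a return of 29.4%, and the difference from XY Ctr was -1.98 ± 0.19 (adjusted p = 3.89e-09). Dmrt1, which maintains male fate after birth and is also expressed in germ cells, gave 679, 1055 and 400.3 in XY DKO, against 648, 677, 448 and 729.9 in XY Sox9KO (difference 0.10 ± 0.32, adjusted p = 0.862), with overlapping groups. Nr0b1, the orphan receptor gene Dax1, differed by -0.42 ± 0.13 (adjusted p = 0.0186), and that call was lost without XY DKO replicate 2 (adjusted p = 0.0757) or 3 (adjusted p = 0.0705) and with only the groups compared (adjusted p = 0.0524).

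Among Sertoli cell products, some returned most of the way on the log2 scale and others were not called higher. Of 26 listed genes 22 had a probe set of their own and 21 passed the filter on low signal. Of these 21, 12 rose (57.1%), 3 fell (14.3%) and 6 did not pass, with a median of 0.952. Over all genes 11.1% rose and 10.8% fell, so the share that fell was near the background. Against XY Ctr, 17 were below (81%) with none above, beside 7.61% of all genes called lower. Hsd17b3, the enzyme that makes testosterone from androstenedione and that Sertoli cells express in the mouse fetus, had signals of 1492, 1153 and 1682 in XY DKO, against 5.4, 22.7, 8.4 and 33.7 in XY Sox9KO. XY Ctr had 2693, 2398, 2932 and 2600.3, and no array of XY DKO overlapped XY Sox9KO. Its rise of 5.51 ± 0.27 (adjusted p = 1.24e-15) was a return of 86.1%, with a difference from XY Ctr of -0.89 ± 0.27 (adjusted p = 0.022). Hsd17b1, a related steroid dehydrogenase gene, came back to 88.1% and Cbln4, a secreted cerebellin, to 81.9%. Vnn1, which encodes a pantetheinase, rose to 2022, 2142 and 1781 in XY DKO, against 612, 634, 822 and 658 in XY Sox9KO, and XY Ctr had 1584, 1621, 1903 and 1639.8. Its difference from XY Ctr was 0.23 ± 0.16 (adjusted p = 0.359), and its return 118%.

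Dhh, Ptgds and Cyp26b1 were Sertoli cell products with a partial return. Dhh, the hedgehog ligand, had signals of 391, 449 and 468 in XY DKO, against 27.2, 41.7, 27.5 and 48.7 in XY Sox9KO, and 2269, 2313, 2394 and 2015 in XY Ctr. Every XY DKO array lay above every XY Sox9KO array and below every XY Ctr array. Dhh rose by 3.13 ± 0.18 (adjusted p = 4.73e-14), a return of 57.4%, and stayed below XY Ctr (difference -2.33 ± 0.18, adjusted p = 4.17e-11). Ptgds, the synthase of prostaglandin D2, had 1505, 1901 and 1436 in XY DKO, against 269, 266, 282 and 554 in XY Sox9KO, and rose by 2.24 ± 0.24 (adjusted p = 2.2e-08) to a return of 48.8%. Cyp26b1, the enzyme that clears retinoic acid in the fetal testis, gave 340.2, 232 and 305 in XY DKO, against 109, 67.6, 88.2 and 74.8 in XY Sox9KO and rose by 1.61 ± 0.22 (adjusted p = 1.39e-06), a return of 48.4%. The groups did not overlap for either gene, and both remained below XY Ctr (Ptgds differed by -2.35 ± 0.24, adjusted p = 1.08e-08 and Cyp26b1 by -1.72 ± 0.22, adjusted p = 6.21e-07). Pdgfa, a growth factor for interstitial cells, rose by 0.66 ± 0.18 (adjusted p = 0.00787) and differed from XY Ctr by 0.11 ± 0.18 (adjusted p = 0.742).

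Genes of 3 inhibin and activin subunits rose. Inha, the shared alpha subunit of the inhibins, had signals of 1896, 1945 and 2095 in XY DKO, against 573, 631, 754 and 679.5 in XY Sox9KO, and 3129.7, 2657, 2741 and 2798 in XY Ctr. The 3 groups did not overlap, the rise was 1.57 ± 0.13 (adjusted p = 1.81e-10) and the return 75.4%. Inhbb, the beta B subunit, gave 3868, 4174 and 4033 in XY DKO, against 2279, 1945, 2222 and 1871 in XY Sox9KO, and 3611, 4539, 4069 and 3947 in XY Ctr, so XY DKO lay within the range of the control testis (rise 0.95 ± 0.14, adjusted p = 4.54e-06, difference from XY Ctr -0.002 ± 0.14, adjusted p = 0.995). Inhba, the beta A subunit that fetal Leydig cells make in the mouse and that acts on Sertoli cells, was not on a list. Its signals were 1721, 1806 and 1695 in XY DKO, against 157, 196, 182 and 126 in XY Sox9KO, and 2614, 2490.4, 2289.9 and 2080.5 in XY Ctr, a rise of 3.29 ± 0.16 (adjusted p = 5.95e-16) and a return of 88.3%.

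Amh, Tesc, Fgf9, Mro, Clu and Aldh1a1 did not pass the test against XY Sox9KO. Amh, the hormone that regresses the Müllerian duct, had signals of 26.2, 10.4 and 12.4 in XY DKO, against 7, 11.5, 20.2 and 11.2 in XY Sox9KO, and 211, 207, 234 and 206 in XY Ctr. The knockout groups overlapped, and every array of both lay far below the control testis. The difference was 0.17 ± 0.41 (adjusted p = 0.803) with a 95% interval of -0.66 to 1.001 (not adjusted), and XY DKO lay below XY Ctr (difference -2.87 ± 0.41, adjusted p = 3.91e-06). Tesc, which encodes the calcium-binding protein tescalcin, had 125, 103 and 149 in XY DKO, against 84.2, 94, 89.4 and 116 in XY Sox9KO, and 1771, 1725, 1876 and 1517 in XY Ctr, with a difference of 0.33 ± 0.17 (adjusted p = 0.17) (95% interval -0.02 to 0.69). Tesc lay below the line at 25% of the way to XY Ctr (adjusted p = 0.00384), while for Amh the position relative to that line was not resolved (adjusted p = 0.316). Cst9 and Defb19, a cystatin and a defensin gene, did rise, by 1.94 ± 0.15 (adjusted p = 6.15e-11) and 1.03 ± 0.12 (adjusted p = 4.84e-08) but returned only to 37.2% and 31.9%. Fgf9, the growth factor that acts with Sox9, had 128, 78 and 89.4 in XY DKO, against 117, 82.3, 108 and 86.7 in XY Sox9KO (difference -0.01 ± 0.20, adjusted p = 0.973) and was below XY Ctr (difference -0.84 ± 0.20, adjusted p = 0.00244). Mro, named for male reproductive development, differed by -0.20 ± 0.18 (adjusted p = 0.458).

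Of the 3 Sertoli cell products that fell, a share of the list near that of all genes, 2 were testis genes whose XY Sox9KO signals overlapped those of XX Ctr. Aard had signals of 714, 666 and 784 in XY DKO, against 1218, 1361, 1473 and 1053 in XY Sox9KO, with 5917, 7573, 6681 and 6578 in XY Ctr and 1334, 1185, 1331 and 1339 in XX Ctr. All 3 XY DKO arrays were below all arrays of XY Sox9KO, XY Ctr and XX Ctr. They were above the XX DKO arrays (510.1, 647.1, 528.4 and 417.6). The difference was -0.80 ± 0.14 (adjusted p = 5.89e-05), which put XY DKO at -33.6%, on the far side of XY Sox9KO from the control testis. Col9a3, a chain of type IX collagen, had 46.7, 75.9 and 82.2 in XY DKO, against 137, 149.9, 138 and 193 in XY Sox9KO, and 163, 140.4, 162 and 159.9 in XX Ctr. It fell by 1.03 ± 0.24 (adjusted p = 0.00232) with the probe set of the highest mean log2 signal, while its other probe set gave -0.534, which was not called (adjusted p = 0.120 over probe sets). Shbg, the sex hormone-binding globulin gene, gave 189.8, 61 and 140.5 in XY DKO, against 242, 239.7, 291 and 164 in XY Sox9KO (difference -0.86 ± 0.25, adjusted p = 0.0126), and without XY DKO replicate 3 this call was lost (-0.453, adjusted p = 0.188), as it was with only the groups compared (adjusted p = 0.0818).

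**Figure D2:**
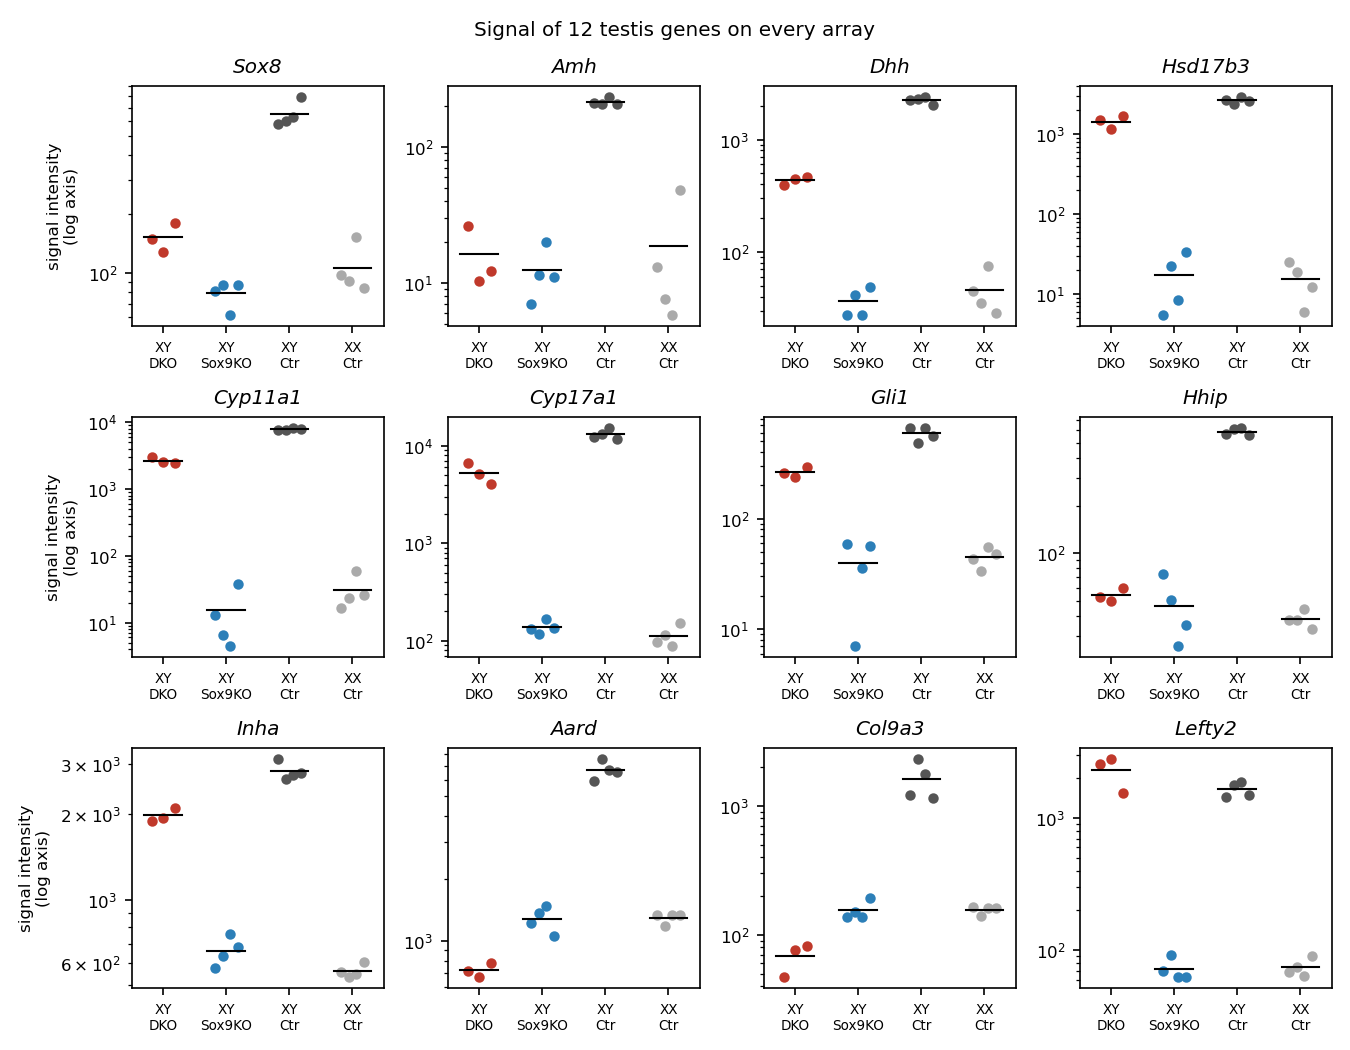
Signal intensity on a log axis for 12 testis genes, with 1 point per array and a bar at the group mean, for XY DKO (3 arrays), XY Sox9KO, XY Ctr and XX Ctr (4 arrays each). Cyp11a1, Cyp17a1, Hsd17b3 and Lefty2 stand far above XY Sox9KO in XY DKO, Amh and Hhip stand with XY Sox9KO, and Aard and Col9a3 stand below it.

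The fetal Leydig cell genes returned together. Of 12 listed genes 6 had a probe set of their own, and all 6 of these rose, with a median of 1.84, and all 6 stayed below XY Ctr. Over all genes 11.1% rose, and 7.61% were called lower than XY Ctr. Cyp11a1, the side-chain cleavage enzyme that opens steroid synthesis, had signals of 2986, 2526 and 2483 in XY DKO, against 13.2, 6.6, 4.4 and 38.5 in XY Sox9KO, and 7629, 7766, 8268 and 7943 in XY Ctr. XY Sox9KO signals overlapped those of XX Ctr (16.8, 23.3, 58.4 and 26.3), and XY DKO stood far above both. The rise was 6.51 ± 0.33 (adjusted p = 2.28e-15), a return of 80.6% on the log2 scale and 33.7% of the XY Ctr signal on the linear scale. A weak second probe set of Cyp11a1, with a mean signal of 171.8 over all arrays, went the other way (-1.33, adjusted p = 1.71e-05 over probe sets), and between the controls it differed by -0.386 where the strong one differed by 7.46.

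Cyp17a1, the enzyme that turns progestogens into androgens, had signals of 6680.4, 5084 and 4011 in XY DKO, against 131, 117, 167 and 134 in XY Sox9KO, and 12393, 13188, 15238 and 11693 in XY Ctr. Its rise was 5.08 ± 0.27 (adjusted p = 7.8e-15) and its return 79.1%. Star, which delivers cholesterol to the inner mitochondrial membrane, had 1597, 1527 and 1850.4 in XY DKO, against 387, 311, 268 and 248 in XY Sox9KO and rose by 2.40 ± 0.13 (adjusted p = 7.8e-15), a return of 66.6%. None of these XY DKO arrays overlapped XY Sox9KO. Hsd3b1, the dehydrogenase that completes progesterone synthesis, rose by 1.27 ± 0.19 (adjusted p = 5.03e-06) to a return of 49.5%, Scarb1, the lipoprotein receptor for cholesterol uptake, by 0.84 ± 0.09 (adjusted p = 4.62e-08) to 41.7%, and Fdx1, the electron donor of mitochondrial cytochromes, by 0.71 ± 0.11 (adjusted p = 2.19e-05) to 43.5%. Genes of adrenal-type steroid synthesis, which the fetal testis also expresses in the mouse, moved alongside. Of 4 measured, 3 rose (75%, beside 11.1% of all genes) and none fell (median 1.32). The summed signal of the 5 list members with a probe set was 476 to 696 in XY DKO, against 286 to 358 in XY Sox9KO and 1151 to 1366 in XY Ctr. Among them Cyp11b1, the 11-beta-hydroxylase gene, had 224, 105 and 178 in XY DKO, against 6.6, 7.9, 20.9 and 9.1 in XY Sox9KO, and Mc2r, the corticotropin receptor gene, had 116, 116 and 189 in XY DKO, against 46.7, 38.3, 32.5 and 52.3 in XY Sox9KO. Cyp11b2, the aldosterone synthase gene that defines the outer adrenal cortex, was below the filter on low signal, and the part of adrenal cells in the Leydig cell result was not tested.

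The promoters of a Leydig cell and of a Sertoli cell gene that returned are shown because both hold the letters AGGTCA, the core of sites bound by NR5A1 and related nuclear receptors. Each window runs from 250 bases before to 50 after the RefSeq start site (GRCm38.p6), with AGGTCA in capitals.
Cyp11a1, chr9:58014702-58015001, plus strand: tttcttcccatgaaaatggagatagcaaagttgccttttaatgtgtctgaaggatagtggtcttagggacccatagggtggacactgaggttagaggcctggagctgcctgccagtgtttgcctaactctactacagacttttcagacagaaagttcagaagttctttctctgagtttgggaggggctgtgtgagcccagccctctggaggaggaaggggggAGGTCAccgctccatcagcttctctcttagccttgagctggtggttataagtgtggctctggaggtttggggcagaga
Inha, chr1:75507359-75507658, plus strand: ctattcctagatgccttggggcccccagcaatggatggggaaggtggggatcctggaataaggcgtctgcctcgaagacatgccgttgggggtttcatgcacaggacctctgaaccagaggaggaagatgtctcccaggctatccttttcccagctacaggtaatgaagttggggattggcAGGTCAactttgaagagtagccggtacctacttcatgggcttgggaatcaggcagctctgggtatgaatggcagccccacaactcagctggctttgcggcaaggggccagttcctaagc
The motif begins at position -28 in Cyp11a1 and -69 in Inha, counted from the start site. Searched on both strands, AGGTCA was present in 35 of 325 windows (10.8%) of the 253 testis genes called higher that had a window, and in 5340 of all 32851 windows (16.3%). It was in 2 of 31 windows of testis genes above the 75% line and in 2 of 19 of those below the 25% line. A match is a description of the letters and not of binding.

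Hedgehog targets and interstitial progenitor genes differed widely among themselves. Of 11 genes with a probe set of 14 listed, 8 rose (72.7%), none fell and 3 did not pass, with a median of 0.433. Against XY Ctr 4 were lower (36.4%) and 2 higher (18.2%). Over all genes 11.1% rose and 10.8% fell, and 7.61% were lower and 9.62% higher than XY Ctr. Only 6 of the 11 were testis genes. The transcription factor genes Gli3 and Lhx9 were not among them, and both were above XY Ctr. Gli3 rose by 0.33 ± 0.11 (adjusted p = 0.0286) and differed from XY Ctr by 0.53 ± 0.11 (adjusted p = 0.000548). Lhx9 rose by 0.43 ± 0.13 (adjusted p = 0.0155) and differed from XY Ctr by 0.41 ± 0.13 (adjusted p = 0.0259). Tcf21, a testis gene for a transcription factor, rose by 0.33 ± 0.11 (adjusted p = 0.0392). All 3 rises lost their call without XY DKO replicate 4 (adjusted p = 0.0820 for Gli3, 0.0816 for Lhx9 and 0.0898 for Tcf21). Leaving out some other single arrays ended them too (adjusted p = 0.0574 to 0.122). Another Gli3 probe set gave -0.382, which was not called (adjusted p = 0.0625), and another of Tcf21 gave 0.086 (adjusted p = 0.749). Tcf21 was also not called with quantile normalisation (adjusted p = 0.0525) or with no filter (0.0534). With only the groups compared Gli3 (adjusted p = 0.126) and Lhx9 (0.0771) were not called, nor was Gli3 with only the XY arrays (0.0602). Gli1, the transcription factor gene that hedgehog signalling switches on, had signals of 257, 236 and 295 in XY DKO, against 58.5, 7, 35.9 and 56.5 in XY Sox9KO, and 661, 484, 656 and 557 in XY Ctr. XY DKO lay between the other groups on every array, with a rise of 2.46 ± 0.31 (adjusted p = 3.91e-07) and a return of 68.8%. Hhip, the hedgehog-binding decoy that is also a hedgehog target, gave 52.3, 49.9 and 59.7 in XY DKO, against 73.4, 50.2, 25.6 and 35.1 in XY Sox9KO, and 568, 608, 622 and 558 in XY Ctr. For Hhip the knockout groups overlapped (difference 0.23 ± 0.24, adjusted p = 0.536, 95% interval -0.26 to 0.72) and XY DKO stayed below XY Ctr (difference -3.11 ± 0.24, adjusted p = 3.6e-11). Ptch1, the hedgehog receptor and likewise a target, had 3153, 2866 and 2589.6 in XY DKO, against 2265, 1945, 2194 and 1954 in XY Sox9KO, a rise of 0.45 ± 0.09 (adjusted p = 0.000507) and a return of 28.3%. Its other 2 probe sets gave 0.609 and 0.499 but were not called (adjusted p = 0.146 and 0.0799 over probe sets).

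Other genes of this list rose as well. Pdgfra, the receptor for PDGF ligands on interstitial progenitors, had signals of 5211, 5762 and 5119.7 in XY DKO, against 2335, 2219, 2708 and 2149 in XY Sox9KO, and 4748, 6855, 5388 and 4849 in XY Ctr. XY DKO lay within the XY Ctr range (rise 1.19 ± 0.12, adjusted p = 9.99e-09, return 99%). Gli2, a hedgehog effector, rose by 0.84 ± 0.16 (adjusted p = 0.000281) to a return of 76.3%, and Nr2f2, the nuclear receptor COUP-TFII of interstitial cells, rose by 0.61 ± 0.09 (adjusted p = 1.39e-05). Nr2f2 was not a testis gene by the rule. Of the 6 probe sets of Nr2f2, 2 were not called and all 6 differences were positive. Of 4 measured peritubular myoid and smooth muscle genes, Acta2, smooth muscle actin, rose by 0.74 ± 0.13 (adjusted p = 5.07e-05) and Myh11, smooth muscle myosin, by 0.58 ± 0.13 (adjusted p = 0.0009), while Tagln (0.24 ± 0.25, adjusted p = 0.548) and Smtn (0.30 ± 0.16, adjusted p = 0.169) did not pass. The 2 smooth muscle rises are 50% of the 4 genes, beside 11.1% of all genes called higher. Basement membrane genes of the testis cords gave 6 higher (60%) and none lower of 10, with a median of 0.259. Among the 6 were the nidogen genes Nid1 (0.66 ± 0.06, adjusted p = 7.73e-10) and Nid2 (0.74 ± 0.10, adjusted p = 9.96e-07) and the laminin gene Lamb1 (0.52 ± 0.07, adjusted p = 3.71e-07). With the probe set of the highest variance Lamb1 was not called (0.389, adjusted p = 0.184).

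**Figure D3:**
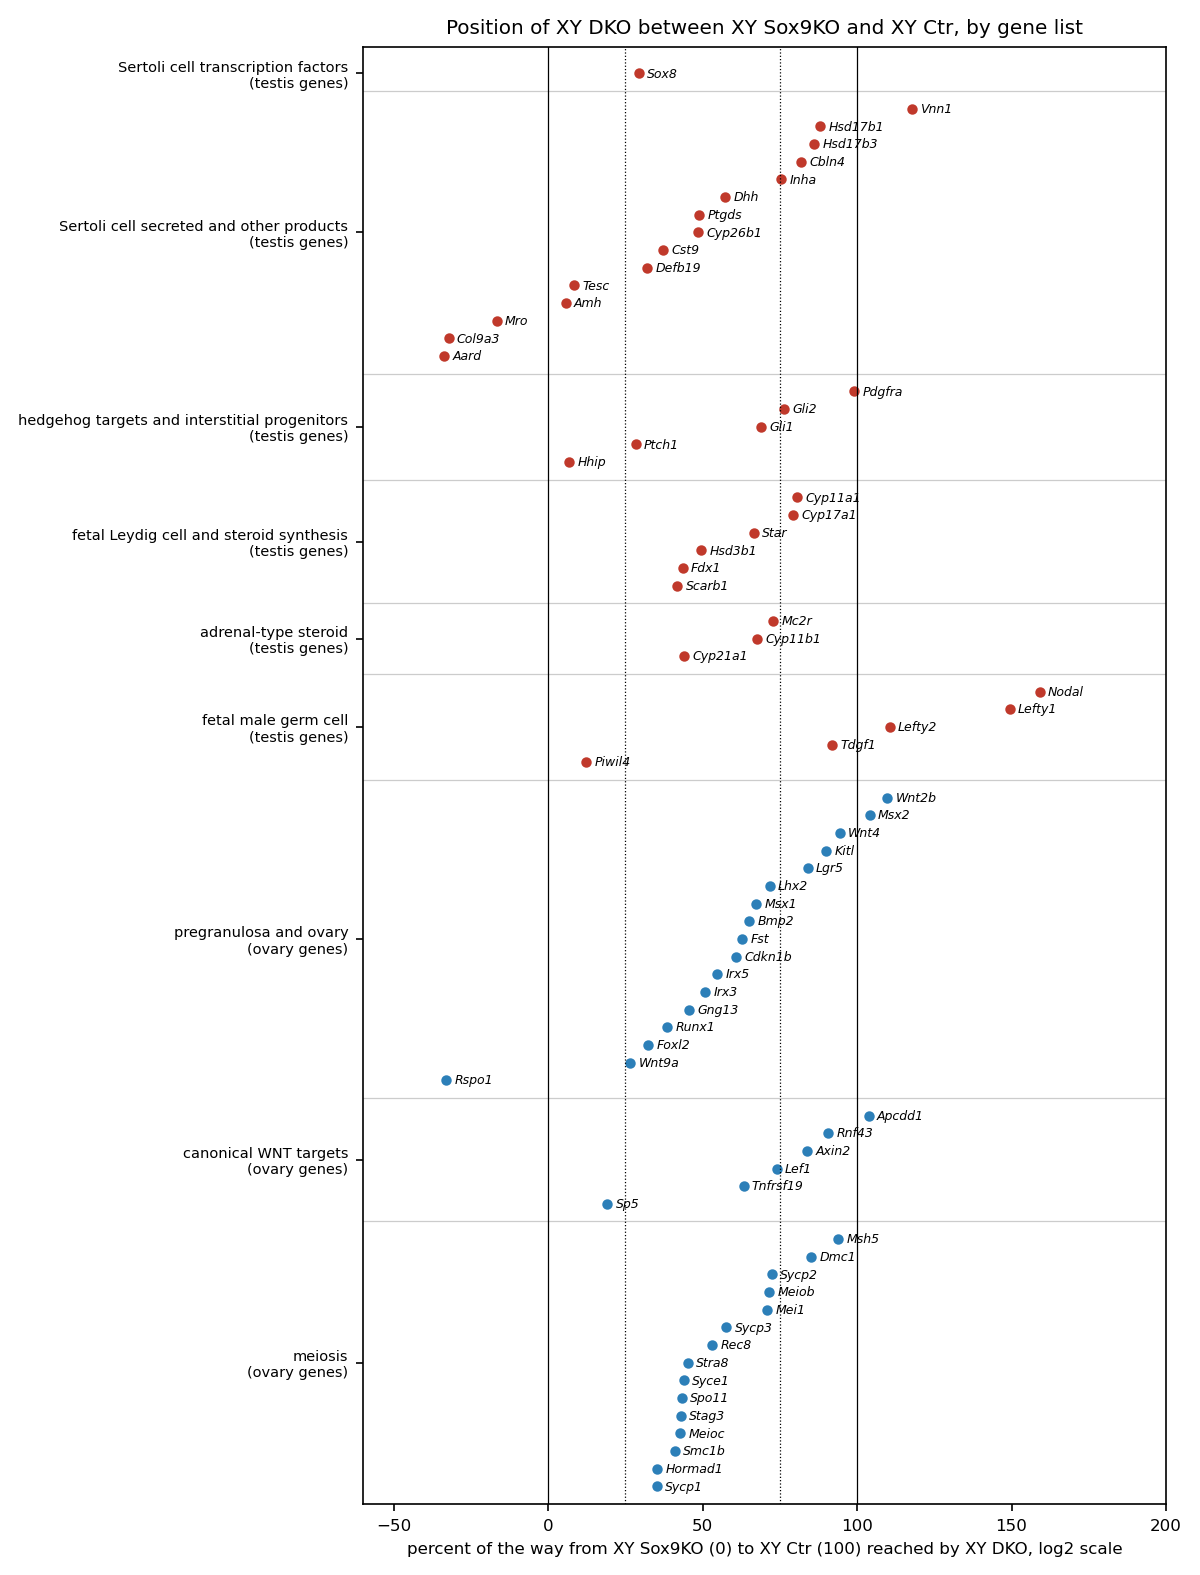
Each point is 1 gene, placed by the percent of the way from the XY Sox9KO mean to the XY Ctr mean that the XY DKO mean reached (log2 scale), grouped by gene list, with testis genes in red and ovary genes in blue and dotted lines at 25% and 75%. Sertoli cell products run from Aard and Col9a3 below 0% to Vnn1 above 100%, while the 6 Leydig cell genes lie between 41.7% and 80.6%.

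Of all 519 testis genes, 33 (6.36%) lay above the line at 75% of the way to XY Ctr, by a test that carries the error of all 3 groups. Over all genes 6.45% were called on that side, a share near that of the testis genes. For genes lower in XY Ctr than in XY Sox9KO that side means falling short, as for 135 of 522 ovary genes. The share of all genes is therefore not a background rate of return. Thbd, thrombomodulin, had signals of 3349, 4207 and 3358 in XY DKO, against 587, 608, 748 and 684 in XY Sox9KO, and 4144, 4129, 3614 and 3951 in XY Ctr. Its return was 95%, and that of Nppc, the C-type natriuretic peptide gene, was 105%. Some genes passed the control testis. Cnmd, the membrane glycoprotein chondromodulin, had 666, 804 and 842 in XY DKO, against 18.4, 15.4, 34 and 29.8 in XY Sox9KO, with 195, 203, 180.4 and 242 in XY Ctr, and each XY DKO array was above each XY Ctr array (difference from XY Ctr 1.83 ± 0.33, adjusted p = 0.00016). Lgi2 and the adhesion molecule gene Vcam1 reached 159% and 124%. Without XY DKO replicate 3 the count above the 75% line was 19.

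By the same kind of test 23 testis genes (4.43%) lay below the line at 25%, against 6.74% of all genes. The share of all genes again mixes both directions, as 171 of 522 ovary genes lay on that side by a loss past 25%. Nt5e, the ecto-5′-nucleotidase CD73, had signals of 43.6, 35.4 and 46.6 in XY DKO, against 47.2, 39.6, 19 and 58.4 in XY Sox9KO, and 384, 506, 426 and 488 in XY Ctr. Its knockout groups overlapped, and its position was 2.22%. Plppr4, related to lipid phosphatases, lay at -8.16%, the riboflavin transporter gene Slc52a3 at -8.97% and Cstdc1, a cystatin domain gene, at -6.75%. Vsnl1, a neuronal calcium sensor, fell instead: it had 124, 89 and 188 in XY DKO, against 206, 449.8, 414 and 353 in XY Sox9KO, and 1420.3, 1139, 979 and 906 in XY Ctr, a difference of -1.31 ± 0.25 (adjusted p = 0.000226). Cited1, a transcriptional co-regulator gene named here after its values were seen, fell by 2.04 ± 0.44 (adjusted p = 0.000878), with 73.9, 149.9 and 56.7 in XY DKO, against 279, 233, 525 and 784 in XY Sox9KO. Vsnl1, Cited1, Aard and Col9a3 were 4 of the 8 testis genes that fell. Without XY DKO replicate 3 the count below the 25% line was 15.

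The Cre does not target germ cells. Genes of NODAL signalling in male germ cells rose. Of 7 measured genes of fetal male germ cells, 4 rose (57.1%, beside 11.1% of all genes), none fell and 3 did not pass, with a median of 2.38. Lefty2, an inhibitor of NODAL signalling that male germ cells express, had signals of 2582, 2797 and 1554 in XY DKO, against 69.7, 92.2, 62.6 and 62.4 in XY Sox9KO, and 1450.0, 1786, 1856 and 1498 in XY Ctr. The XY DKO arrays lay within or above the XY Ctr range (rise 4.70 ± 0.17, adjusted p = 1.41e-18, return 111%), and the lowest was replicate 4. Lefty1 had 457, 592 and 265 in XY DKO, against 40.0, 5, 5.4 and 2.7 in XY Sox9KO and returned to 149%, Nodal itself had 493, 529.6 and 350.4 in XY DKO, against 76, 110.0, 64.4 and 54 in XY Sox9KO and returned to 159%, and the co-receptor gene Tdgf1 returned to 91.8%. XY DKO was above XY Ctr for Lefty1 (1.34 ± 0.35, adjusted p = 0.00694) and Nodal (0.88 ± 0.27, adjusted p = 0.0198). It was below XY Ctr for the piRNA pathway genes Piwil4 (-1.66 ± 0.42, adjusted p = 0.00535) and Tdrd9 (-1.41 ± 0.35, adjusted p = 0.00407), which are named here after their values were seen. Neither passed against XY Sox9KO, with differences of 0.23 ± 0.42 (adjusted p = 0.739) for Piwil4 and -0.66 ± 0.35 (adjusted p = 0.179) for Tdrd9. Rises were measured in XX DKO against XX Sox9KO as well. They were 4.58 ± 0.16 for Lefty2, 3.54 ± 0.32 for Lefty1 and 1.96 ± 0.25 for Nodal. The test of the difference between the XY and the XX effect called none of the 7 genes. It called 0.943% of all genes, so no call among 7 is near that share and does not show equal effects.

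Many meiotic genes fell, with a wide spread between XY DKO arrays. Of 16 genes 9 fell (56.2%, beside 10.8% of all genes), none rose and 7 did not pass, with a median of -1.20. Stra8, the retinoic acid target that opens meiosis, had signals of 1729, 2613 and 530.1 in XY DKO, against 5395, 4939.9, 5743 and 6632 in XY Sox9KO, and 284, 213, 256 and 165 in XY Ctr. All XY DKO arrays were below XY Sox9KO and above XY Ctr (difference -2.06 ± 0.35, adjusted p = 4.27e-05). Rec8, a meiotic cohesin, had 724, 948 and 517 in XY DKO, against 2648, 3086, 2705 and 3045 in XY Sox9KO (difference -1.99 ± 0.17, adjusted p = 3.01e-10), Meioc, which stabilises the meiotic programme, differed by -1.86 ± 0.33 (adjusted p = 8.05e-05), and Mei1 by -1.75 ± 0.46 (adjusted p = 0.0055). Of 10 pan-germ cell markers 3 rose (30%, beside 11.1% of all genes), with a list median of 0.218. The 1 that fell is 10% of the list, near the 10.8% of all genes called lower. The summed signal of these markers was 12136 to 27947 in XY DKO, against 16085 to 19908 in XY Sox9KO. In XY DKO the sums were 23290, 27947 and 12136, so replicate 4, the array with the lowest signals of Lefty1, Lefty2, Nodal, Stra8 and Rec8, also had the lowest germ cell sum, and the part of germ cell content in these results was not tested. The 3 that rose were Pou5f1 (1.15 ± 0.38, adjusted p = 0.0285), Dppa3 (1.01 ± 0.32, adjusted p = 0.0226) and Tdrd1 (0.81 ± 0.24, adjusted p = 0.0133), and each lost its call without XY DKO replicate 2 (adjusted p = 0.0532 to 0.109) and without XY DKO replicate 3 (adjusted p = 0.108 to 0.153). Pou5f1 and Dppa3 also lost it without XY Sox9KO replicate 3 (adjusted p = 0.143 and 0.0850), and Pou5f1 with only the groups compared (adjusted p = 0.0600). The homeobox gene Rhox6 fell (-1.79 ± 0.26, adjusted p = 3.55e-06).

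Most listed pregranulosa and ovary genes went down. Of 17 such genes 15 fell (88.2%, beside 10.8% of all genes), 1 rose and 1 did not pass, with a median of -1.47. Still above XY Ctr were 12 (70.6%, beside 9.62% of all genes). Fst, the activin-binding protein follistatin, had signals of 319, 270.1 and 331 in XY DKO, against 3243, 3608, 3121 and 2866 in XY Sox9KO, and 67.5, 74.3, 54.6 and 69 in XY Ctr. Its groups were far apart on every array, with a difference of -3.32 ± 0.14 (adjusted p = 1.23e-17) and a loss of 62.8%. Foxl2 had 590.0, 588 and 448 in XY DKO, against 1621, 1530.4, 1745 and 1225 in XY Sox9KO, and 53.4, 60.8, 38.4 and 51.2 in XY Ctr, a difference of -1.47 ± 0.17 (adjusted p = 5.43e-08). Foxl2 kept more than its XY Ctr level on every XY DKO array and lost 32.4% of the way, and Runx1, a supporting cell transcription factor of the ovary, lost 38.4%. These losses and that of Fst are on the log2 scale.

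Ligands and receptors of WNT signalling did not move as 1 block. Wnt4 had signals of 756, 629 and 776 in XY DKO, against 1872, 2056, 1932 and 2278 in XY Sox9KO, and 659, 669, 626 and 744 in XY Ctr, a difference of -1.48 ± 0.12 (adjusted p = 1.81e-10) that left XY DKO at 0.09 ± 0.12 (adjusted p = 0.683) from XY Ctr. Rspo1, the secreted potentiator of WNT signalling that acts upstream of beta-catenin, went the other way, with 3697, 3578 and 4560.4 in XY DKO, against 2697, 2513, 2778 and 2151 in XY Sox9KO, and 661, 663, 624 and 678 in XY Ctr. XY DKO lay above XY Sox9KO and above XX Ctr (2538, 2809, 2562 and 2594) on every array (rise 0.63 ± 0.11, adjusted p = 5.76e-05). Wnt2b fell by 1.24 ± 0.15 (adjusted p = 3.02e-07), while Wnt9a had 406, 414 and 361 in XY DKO, against 555, 574, 573 and 436 in XY Sox9KO and did not pass (difference -0.42 ± 0.16, adjusted p = 0.064); without XY Sox9KO replicate 4 it did (-0.51, adjusted p = 0.0365). Kitl, the KIT ligand made by supporting cells, fell by 1.81 ± 0.12 (adjusted p = 1.29e-12), a loss of 90.0%. The homeobox genes Irx3 and Irx5 of pregranulosa cells also fell, with differences of -2.37 ± 0.18 (adjusted p = 2.31e-11) and -1.07 ± 0.19 (adjusted p = 7.42e-05). The homeobox genes Msx1 and Msx2, known for a role in meiotic entry, fell with differences of -2.93 ± 0.17 (adjusted p = 7.5e-14) and -3.44 ± 0.40 (adjusted p = 1.07e-07), and Bmp2 with -1.51 ± 0.15 (adjusted p = 7.89e-09).

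Genes that beta-catenin activates in many tissues mostly fell. Of 14 listed canonical WNT target genes 13 had a probe set and 11 passed the filter. Of these 7 fell (63.6%), 1 rose (9.09%) and 3 did not pass, with a median of -0.801. Over all genes 10.8% fell and 11.1% rose. Against XY Ctr 2 of the 11 were higher (18.2%, beside 9.62% of all genes), none was lower and 9 were not called. As 9748 of all 11777 genes were not called against XY Ctr either, the 9 are near the share of all genes. Axin2, a feedback inhibitor and the usual reporter of the pathway, had signals of 758, 742 and 676 in XY DKO, against 1626, 1569, 1479.5 and 1479.7 in XY Sox9KO, and 789, 515, 597 and 634 in XY Ctr. The XY DKO arrays were all below XY Sox9KO and within the XY Ctr range (difference -1.07 ± 0.13, adjusted p = 2.72e-07, loss 83.9%). Lgr5, an RSPO receptor and target counted with the ovary genes, had 137, 87.5 and 113 in XY DKO, against 990.2, 973, 1039 and 1007 in XY Sox9KO, a difference of -3.004 ± 0.17 (adjusted p = 2.49e-14). Rnf43, the ubiquitin ligase that removes WNT receptors, fell by 2.06 ± 0.25 (adjusted p = 1.4e-07), and Lef1, the nuclear partner of beta-catenin, fell by 0.80 ± 0.19 (adjusted p = 0.00231). The WNT inhibitor genes Apcdd1 and Nkd1 gave differences of -1.07 ± 0.18 (adjusted p = 3.17e-05) and -0.90 ± 0.14 (adjusted p = 1.5e-05), and Tnfrsf19, a receptor of the TNF family, one of -2.55 ± 0.10 (adjusted p = 3.72e-18). Sp5 did not pass, with 616, 798 and 297 in XY DKO, against 752, 761, 733 and 682 in XY Sox9KO, and its XY DKO replicate 4 stood well below the others (difference -0.46 ± 0.33, adjusted p = 0.349). Znrf3, the relative of Rnf43, differed by -0.15 ± 0.10 (adjusted p = 0.33), and Dkk1, a WNT antagonist, rose by 1.22 ± 0.29 (adjusted p = 0.00245), a call that was lost with only the groups compared (adjusted p = 0.0551).

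**Figure D4:**
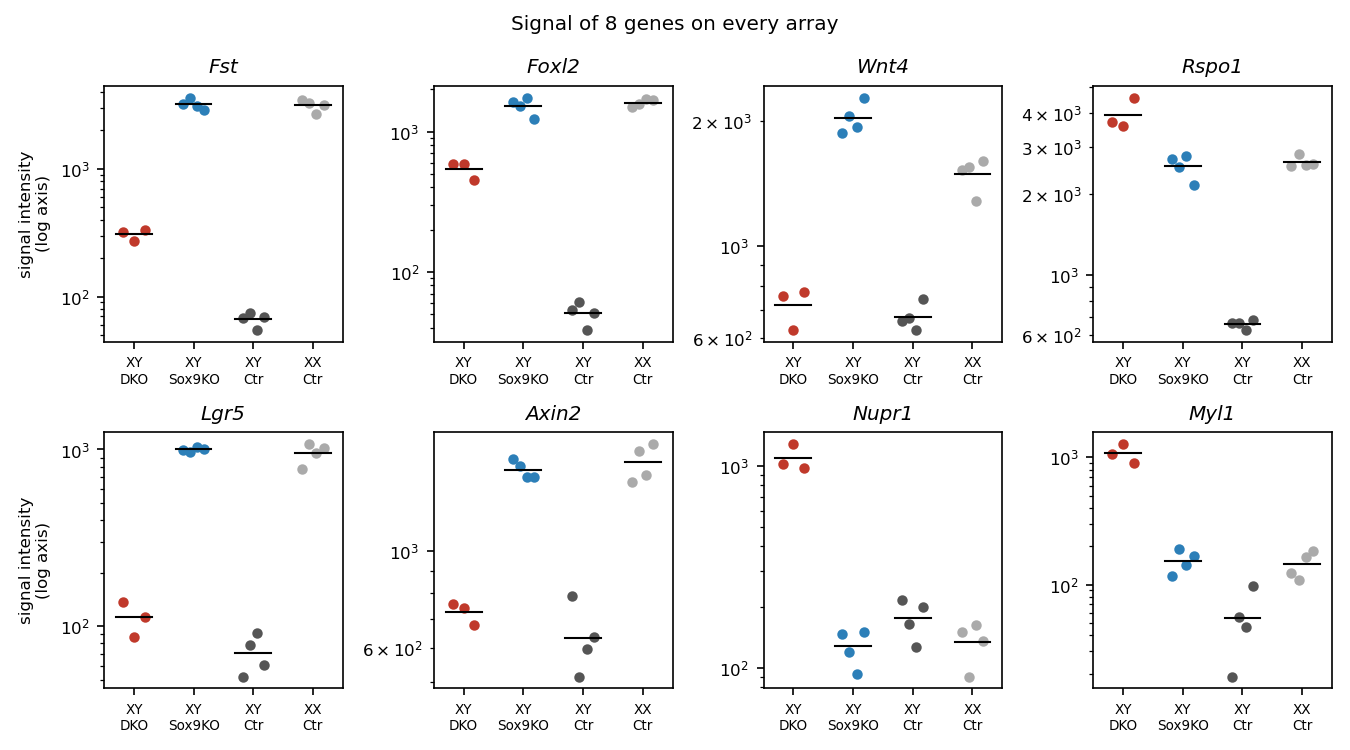
Signal intensity on a log axis for the ovary genes Fst, Foxl2, Wnt4, Rspo1, Lgr5 and Axin2 and for Nupr1 and Myl1, with 1 point per array and a bar at the group mean. Wnt4 and Axin2 stand at the XY Ctr level in XY DKO, Foxl2 and Fst between XY Sox9KO and XY Ctr, and Rspo1, Nupr1 and Myl1 above the other 3 groups.

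For ovary genes too, the shares of all genes beside the lines mix both directions. Of 519 testis genes, 182 lay on the lower side of the 75% line and 227 on the upper side of the 25% line. Among all ovary genes 15 (2.87%) lay past the line at 75% of the way to XY Ctr, against 5.08% of all genes called on that side, and 17 (3.26%) fell short of the line at 25%, against 8.26%. Past it were Dlx3, a homeobox gene, with 10.9, 7.5 and 4.2 in XY DKO, against 231, 262, 202 and 216 in XY Sox9KO, Sorbs2, an adaptor of the cytoskeleton, with a loss of 101%, Thbs2, a matrix thrombospondin, with 121%, Trim66 with 109% and the long noncoding RNA Rmst with 141%. The Dlx3 groups were widely separated (difference -3.38 ± 0.28, adjusted p = 1.22e-10). Short of it were Crygb, a crystallin gene, with 263, 256 and 194 in XY DKO, against 118, 114, 223 and 206 in XY Sox9KO, and Mettl24, Slc41a2 and the semaphorin receptor gene Plxna4, whose differences were 0.25 ± 0.12 (adjusted p = 0.158), 0.07 ± 0.14 (adjusted p = 0.777) and 0.17 ± 0.14 (adjusted p = 0.397). Without XY DKO replicate 3 the count past the 75% line was 8. The 5 ovary genes that rose were Rspo1, Lmo7 (0.90 ± 0.19, adjusted p = 0.000524), the skeletal myosin genes Myh8 (1.07 ± 0.18, adjusted p = 3.62e-05) and Myl1 (2.69 ± 0.29, adjusted p = 2.64e-08), and the immediate early gene Fos (0.78 ± 0.27, adjusted p = 0.0396), whose call was lost when any of 4 arrays was left out alone (XY DKO replicates 2 and 3, XY Sox9KO replicates 2 and 3; adjusted p = 0.0581 to 0.184). The Fos call was also lost with quantile normalisation (adjusted p = 0.0674), a pseudocount of 1 (0.0548), no filter (0.0536), only the XY arrays (0.0548) and only the groups compared (0.0629).

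Some genes that were not called between the control testis and ovary changed. Of 7184 genes that were not called and differed by less than 0.5 log2 units between the controls, 429 rose (5.97%) and 420 fell (5.85%), smaller shares than the 11.1% and 10.8% over all genes. Nupr1, a stress-induced nuclear protein, had signals of 1027, 1282 and 974 in XY DKO, against 147, 120.0, 92.8 and 151 in XY Sox9KO, with 216, 164, 127 and 199.7 in XY Ctr and 151, 90.1, 162 and 135 in XX Ctr. Every XY DKO array lay above every array of these 3 other groups (rise 2.96 ± 0.35, adjusted p = 1.23e-07). The genes named here were picked among called genes whose XY DKO and XY Sox9KO arrays did not overlap, so that separation is no result. Over all genes, the arrays of these groups did not overlap for 12.9% (higher) and 13.6% (lower). Car12, a carbonic anhydrase, had 356, 362 and 411 in XY DKO, against 68.2, 81.9, 66.3 and 68.4 in XY Sox9KO (rise 2.17 ± 0.22, adjusted p = 1.04e-08), and the syntrophin gene Sntb1, the transglutaminase gene Tgm3 and the nuclear receptor gene Nr5a2 rose by 2.49 ± 0.25 (adjusted p = 8.69e-09), 2.49 ± 0.39 (adjusted p = 1.19e-05) and 1.51 ± 0.33 (adjusted p = 0.000991). Among the falls were Aldh1a3, which makes retinoic acid, with 93.3, 69.8 and 94.3 in XY DKO, against 234, 240.5, 214 and 228 in XY Sox9KO (difference -1.28 ± 0.18, adjusted p = 3.64e-06), Cacna2d2, a calcium channel subunit (-1.28 ± 0.26, adjusted p = 0.000444), and Wfdc1 (-1.19 ± 0.16, adjusted p = 1.16e-06).

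Markers of other cell types differed in how far they moved. Over all genes 11.1% were called higher and 10.8% lower. The shares called higher were 80% of macrophage and leukocyte, 75% of stress-responsive, 50% of striated muscle and 25% of proliferation genes. They were 16.7% of mesonephric duct, tubule and rete genes, 5.88% of endothelial and 0% of erythroid genes. Of 15 measured macrophage and leukocyte genes, 12 rose, none fell and 3 did not pass, with a median of 0.894, and the summed signal of the 16 list members with a probe set was 13009 to 15845 in XY DKO, against 7080 to 7622 in XY Sox9KO, 6525 to 8659 in XY Ctr and 5663 to 9623 in XX Ctr. Ctss, a lysosomal protease of phagocytes, had signals of 1261, 1719 and 1458 in XY DKO, against 405, 527, 489.6 and 667 in XY Sox9KO (rise 1.49 ± 0.18, adjusted p = 1.26e-07), Tyrobp, a myeloid signalling adaptor, rose by 1.26 ± 0.19 (adjusted p = 8.3e-06) and Ptprc, the pan-leukocyte marker CD45, by 1.25 ± 0.23 (adjusted p = 0.00017). Adgre1, the F4/80 macrophage marker, was below the filter on low signal. Of 6 striated muscle genes 3 rose and none fell, and the summed signal of all 8 list members was 3792 to 7269 in XY DKO, against 1952 to 3425 in XY Sox9KO. Tnnc1, a troponin, had 1412, 1920.4 and 1409 in XY DKO, against 182, 154, 146 and 321 in XY Sox9KO (rise 2.93 ± 0.30, adjusted p = 8.47e-09), and Myl1 had 1067, 1273 and 899 in XY DKO, against 118, 190.0, 142 and 168 in XY Sox9KO. Acta1, skeletal actin, and Myog, the myogenic factor myogenin, were below the filter. Endothelial genes gave 1 higher and 1 lower of 17, the higher one being the arterial ligand gene Efnb2 (0.63 ± 0.09, adjusted p = 2.25e-06, not called with 2 of its 3 other probe sets), and erythroid genes gave none of 6 in either direction. Of 6 mesonephric duct, tubule and rete genes, Pax8 fell by 2.17 ± 0.27 (adjusted p = 3.36e-07), Emx2 fell by 0.76 ± 0.15 (adjusted p = 0.000444) and Lhx1 rose by 2.56 ± 0.32 (adjusted p = 2.82e-07), with sums over 9 list members of 3415 to 3727 in XY DKO, against 4278 to 5210 in XY Sox9KO. Stress-responsive genes (immediate early and heat shock, which also react to dissection) gave 6 higher and none lower of 8 (median 0.995), with sums over 11 list members of 5469 to 5822 in XY DKO, against 2933 to 3589 in XY Sox9KO and 6636 to 7167 in XY Ctr, among them Egr1 (1.68 ± 0.13, adjusted p = 3.39e-11) and Nr4a1 (1.51 ± 0.18, adjusted p = 2.27e-07). Of 12 proliferation genes 3 rose, Cdk1 by 0.65 ± 0.13 (adjusted p = 0.00031), and none fell. What part these cell types and handling have in the other results was not tested.

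The same loss of Ctnnb1 without Sox9 was measured in XX gonads, on arrays that no XY group shares. There 216 of 519 testis genes rose (7.36% of all genes rose) and 170 of 522 ovary genes fell (6.16% of all genes fell). The test of the difference between the XY and the XX effect called 111 of 11777 genes (0.943%), 85 higher in XY (0.722%) and 26 lower (0.221%). Of the testis genes 62 were higher in XY and none lower, and of the ovary genes 18 were lower in XY and none higher. Without XY DKO replicate 4 the test called 62 genes and without XY Sox9KO replicate 4 it called 73.

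For all 6 measured Leydig cell genes the effect was higher in XY than in XX gonads by the test of the difference. Cyp11a1 rose by 6.51 ± 0.33 in XY, against 2.83 ± 0.31 in XX, a difference of 3.68 ± 0.45 (adjusted p = 1.57e-05). Cyp17a1 differed by 2.74 ± 0.37 (adjusted p = 5.24e-05), Star by 1.02 ± 0.18 (adjusted p = 0.00154), and Hsd3b1, which fell in XX gonads (-1.51 ± 0.17, adjusted p = 9.78e-08), by 2.78 ± 0.25 (adjusted p = 6.68e-08). Scarb1 differed by 0.62 ± 0.13 (adjusted p = 0.0102). It was not called with only the groups compared (adjusted p = 0.0772) or with the probe set of the highest variance (0.595, adjusted p = 0.119). Fdx1 differed by 0.72 ± 0.16 (adjusted p = 0.0137), not called without XY DKO replicate 2 (adjusted p = 0.0579). Outside the list Hao2, a hydroxyacid oxidase gene, rose by 2.86 ± 0.19 in XY and differed by 0.12 ± 0.17 in XX gonads (adjusted p = 0.711), and Inhba rose by 3.29 ± 0.16 in XY and 1.65 ± 0.15 in XX. Hsd17b3, a product of Sertoli cells, did not differ by the test: it rose by 5.51 ± 0.27 in XY and 4.49 ± 0.25 in XX, with a difference of 1.02 ± 0.37 (adjusted p = 0.181).

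Of the Sertoli cell products Dhh rose by 3.13 ± 0.18 in XY, against 1.72 ± 0.17 in XX (difference 1.41 ± 0.25, adjusted p = 0.00184), and Cyp26b1 differed by 1.26 ± 0.30 (adjusted p = 0.029). The hedgehog target Gli1 differed by 1.85 ± 0.42 (adjusted p = 0.0236). The calls of Cyp26b1 and Gli1 were both lost without XY DKO replicate 2 (adjusted p = 0.0924 and 0.0543) and without replicate 4 (adjusted p = 0.0855 and 0.083), and that of Cyp26b1 also without XY Sox9KO replicate 4 (adjusted p = 0.0673). Among genes that fell further in XY were Irx3 at -1.39 ± 0.24 (adjusted p = 0.00183), Msx1 at -1.40 ± 0.24 (adjusted p = 0.00116), Rhox9, a reproductive homeobox gene on the X chromosome, at -2.22 ± 0.44 (adjusted p = 0.00648) and its relative Rhox6 at -1.52 ± 0.35 (adjusted p = 0.0236). Rec8 differed by -0.998 ± 0.23 (adjusted p = 0.0267). The calls of Rhox6 and Rec8 were lost without XY DKO replicate 4 (adjusted p = 0.0883 and 0.133) and without XY Sox9KO replicate 4 (adjusted p = 0.0636 for both), and that of Rec8 also without XY DKO replicate 2 (adjusted p = 0.0550). With only the groups compared, Gli1 (adjusted p = 0.138), Cyp26b1 (0.107) and Rhox6 (0.0710) were not called. Gli1 was not called with a pseudocount of 1 either (adjusted p = 0.0691). The canonical WNT target genes gave no call in either direction of 11, which is near the 0.943% of all genes called and does not show equal effects. Axin2 was at -1.07 ± 0.13 in XY and -0.88 ± 0.12 in XX gonads.

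**Figure D5:**
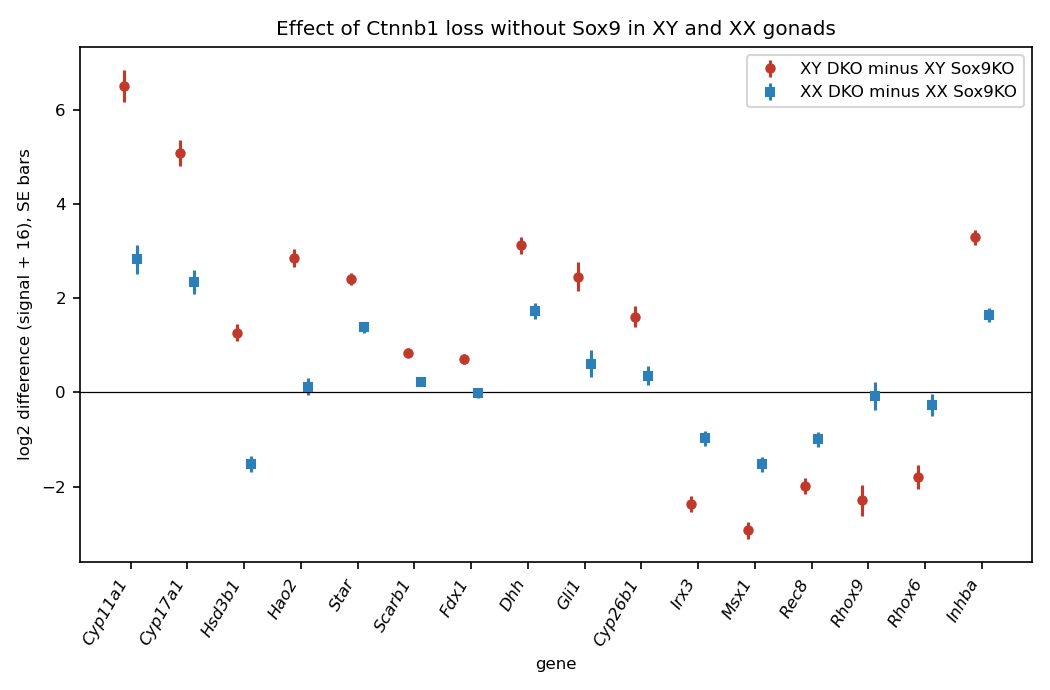
Log2 differences of signal + 16 with SE bars for genes whose XY and XX effects differed by the test, as XY DKO minus XY Sox9KO (red circles) and XX DKO minus XX Sox9KO (blue squares). The steroid synthesis genes Cyp11a1, Cyp17a1, Hsd3b1 and Star lie higher in XY, and Irx3, Msx1, Rec8, Rhox9 and Rhox6 lie lower.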

How the data were processed

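Gonads of 31 embryos were measured on expression arrays in 8 groups, 4 arrays each except 3 for XY DKO, and total RNA (40 ng) was amplified before labelling, per the labels' protocols. The deposited values are signal intensities on a linear scale, for which the submitters' processing notes name MAS5 without a version. Each array's trimmed mean was 500, so a change shared by most genes cannot be seen. Arrays have no read depth, and their number limits the precision.

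Probe sets with 1 gene symbol in the platform annotation (34945 of 45101, of which 34741 matched RefSeq symbols) were used, with the probe set of the highest mean log2(signal + 16) kept for each gene. Of 18193 genes, 11777 with a signal above the array's median on at least 3 arrays were tested. Differences come from limma 3.58.1 in R 4.3.3, with 1 mean for each of the 8 groups and a trended eBayes prior, leaving 23 residual degrees of freedom, with Benjamini-Hochberg adjustment over all genes tested. Adjusted p-values named as over probe sets come from the same fit on probe sets. The lines at 25% and 75% are contrasts of the 3 group means, and the XY against XX difference is an interaction contrast. The code was tested on simulated data. The members, the gene lists and the tests were chosen with earlier results of these data known. Named genes were the members of the main lists, up to 4 members of each other list, and, outside the lists, the genes with the largest control difference beyond the lines, the largest off-axis changes and the largest XY against XX differences. The off-axis changes were picked among called genes whose XY DKO and XY Sox9KO arrays did not overlap. Promoters and symbols are from RefSeq (GRCm38.p6). Alternatives were quantile normalisation, other pseudocounts, no filter, other samples in the fit, the replicate number as a block, the probe set of the highest variance, XX Ctr as the ovary end, the linear scale and leaving out arrays of XY DKO and XY Sox9KO in turn. The alternative without the XX array that lacks Xist was chosen after seeing the data.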

Additional observations from a re-analysis of the deposited data

Results flagged for a closer look

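The effect of Ctnnb1 loss without Sox9 differed between XY and XX gonads by the test of the difference itself for 16 genes given in the text. On the log2 scale, as XY minus XX, the steroid synthesis genes differed by 3.68 for Cyp11a1, 2.78 for Hsd3b1, 2.74 for Cyp17a1, 1.02 for Star, 0.72 for Fdx1 and 0.62 for Scarb1, and Hao2 by 2.74. Dhh differed by 1.41, Gli1 by 1.85, Inhba by 1.64 and Cyp26b1 by 1.26. Lower in XY were Irx3 at -1.39, Msx1 at -1.40, Rhox9 at -2.22, Rhox6 at -1.52 and Rec8 at -0.998. Of the 16, 10 kept their call under all alternatives and none changed sign.

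An array stood far from the other 3 of its group in 15 of 278 groups of 4 checked over 139 genes, where chance gives about 1 in 20. In XY Sox9KO these were Car12 (81.9) and Tdrd9 (151.2) in replicate 2, Lefty1 (40.0, replicate 1), Msx2 (502.6), Ptgds (554.3) and Wnt9a (436.3), the last 3 in replicate 4. In XY Ctr they were Dmrt1 (866.7), Rmst (101.4), Tdrd9 (146.1), Wfdc1 (306.7) and Xist (61.2) in replicate 2, Msx1 (68.5) and Nr5a1 (2649.1) in replicate 1, Mettl24 (112.4) in replicate 3 and Slc52a3 (490.4) in replicate 4. The 3 XY DKO arrays are too few for this check.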

How the results depend on the processing

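Of 139 named genes 112 were called and 97 of these kept their call under all 16 alternatives. Of the 112, 1 changed sign, Gli3 with the probe set of the highest variance (-0.382, not called). The number of genes called in XY DKO against XY Sox9KO was 1705 with only the groups compared, where fewer arrays estimate the spread, and 1915 to 2829 when an XY DKO or XY Sox9KO array was left out. Leaving out an array gave 314 to 349 testis genes higher and 236 to 313 ovary genes lower, and against XY Ctr 279 to 330 testis genes lower and 211 to 256 ovary genes higher. It gave 19 to 35 testis genes above the 75% line, 15 to 23 below the 25% line, 8 to 17 ovary genes past the 75% line and 13 to 19 short of the 25% line, the lowest of the first 3 without XY DKO replicate 3. The XY against XX difference gave 53 genes with only the groups compared, which are the same arrays as in the alternative named for XY arrays (53), and 62 to 165 with an array left out (62 without XY DKO replicate 4, 73 without XY Sox9KO replicate 4). The median return of testis genes was 51.1% with a pseudocount of 64, 51.0% with no filter and 37.0% on linear signal, and 53.5% to 55.9% with an array left out. The median loss of ovary genes was 72.2% on linear signal and 52.5% to 58.7% with an array left out. Differences that were not called and changed sign were those of Ctnnb1 (0.026) and Fgf9 (0.009) with quantile normalisation and of Xist (-0.253) with the probe set of the highest variance, and, with an array left out, those of Amh (-0.038 to 0.301), Cstdc1 (-0.496 to 0.163), Ctnnb1 (-0.108 to 0.033), Dmrt1 (-0.231 to 0.45), Fgf9 (-0.191 to 0.117), Nt5e (-0.15 to 0.214), Sox9 (-0.079 to 0.483) and Xist (-0.15 to 0.333). Where no cause is given, the cause was not tested. With the replicate number as a block, 2570 genes were called, 347 testis genes higher and 309 ovary genes lower, and 127 for the XY against XX difference. The numbers do not pair the arrays: deviations of same-numbered arrays correlated at -0.23, -0.14 and -0.30. Genes with signals near the pseudocount, such as Amh and Sox9 in the knockouts, have differences that the log scale compresses.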
